A study of Mus musculus with 32 samples.

Results

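The nuclear pore and lamina genes are a set of 34 mouse genes, picked by name, that encode nucleoporins and the lamins, inner nuclear membrane proteins and chromatin binding protein that line the nucleus. All 34 of 34 had an entry among the 37441 genes of the count table. RNA was sequenced from germinal vesicle (GV) oocytes, which still hold an intact nucleus, and from metaphase II (MII) oocytes, in which the envelope has broken down. The females were of the strains labelled B6 and D2 and of their cross, B6xD2 F1, were aged 8 to 12 weeks, and carried no transgene or treatment named in the labels. There were 5 B6 GV, 6 B6 MII, 6 F1 GV, 5 F1 MII, 5 D2 GV and 5 D2 MII libraries. Each library came from a pool of 9 to 20 oocytes of 1 mother, so a replicate stands for 1 female. Only GV oocytes were collected in IBMX, a phosphodiesterase inhibitor that keeps the nucleus intact, so that this drug and the stage cannot be told apart. Each group held libraries of both batches in the labels, which were run on different sequencers. Titles of batch 2 open with 1 of 2 number prefixes, and all 5 B6 libraries of batch 2 carry the one and both F1 MII libraries the other, so that prefix and group are partly confounded there. Libraries held 18.7 to 39.7 M counts, and the set took up 0.525% to 0.724% of a library.

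The nuclear pore complex is a ring-shaped channel through the nuclear envelope. Scaffold rings of Y-shaped complexes and an inner ring hold it in the membrane, phenylalanine-glycine rich nucleoporins fill the channel, and filaments and a basket project to the cytoplasm and the nucleoplasm. Beneath the membrane lies the lamina, a mesh of lamins bound to inner membrane proteins and chromatin. When an oocyte resumes meiosis the envelope is taken apart, and it is built again around the pronuclei after fertilisation. Full-grown oocytes transcribe little, and maturing oocytes rely on mRNA that was stored earlier.

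Transcript levels spanned a wide range within the set. Levels are given as CPM, the usual read count normalised to library size, and genes were compared with each other per kilobase of exon. Exon length is that of all annotated exons merged, so that ranks depend on the isoforms in the annotation. On that scale Nup214, a nucleoporin of the cytoplasmic side, ranked first at 136 ± 30.3 CPM per kb in GV oocytes (SD, n = 16) and 200.2 ± 48.0 in MII oocytes (SD, n = 16). Nup62 of the central channel was next at 108 ± 16.6 and 162 ± 16.3 CPM per kb, and their ranges overlapped at both stages. The membrane nucleoporin Pom121 and the channel nucleoporin Nup98 followed in that order at both stages. Their merged exons hold 5.58 and 12.60 kb, while the transcripts read below hold 5580 and 6694 bases, so their order depends on the length used. At the other end, Nup210, a membrane nucleoporin, had 0.576 ± 0.190 and 0.550 ± 0.193 CPM per kb. Next lowest was Lmnb2, which encodes the B-type lamin B2, at 1.75 ± 0.752 in GV and 0.912 ± 0.464 in MII oocytes. Among the lamins, Lmnb1 held 8.40 ± 1.96 and Lmna 6.55 ± 1.55 CPM per kb in GV oocytes. The order of Lmnb1 and Lmna also depends on the length used, with merged exons of 2.96 and 5.84 kb but transcripts of 2843 and 3156 bases. Both pore scaffolds held members of unlike level: in GV oocytes Nup107 of the Y complex had 36.0 ± 12.4 CPM per kb, while Nup133 of the same complex had 3.03 ± 0.711. In the inner ring, Nup35 had 26.0 ± 5.74 and Nup205 3.47 ± 0.728 CPM per kb. The largest move in rank between the stages was that of Aaas, the gene of aladin on the cytoplasmic side, from place 11 to place 21.

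**Figure D1:**
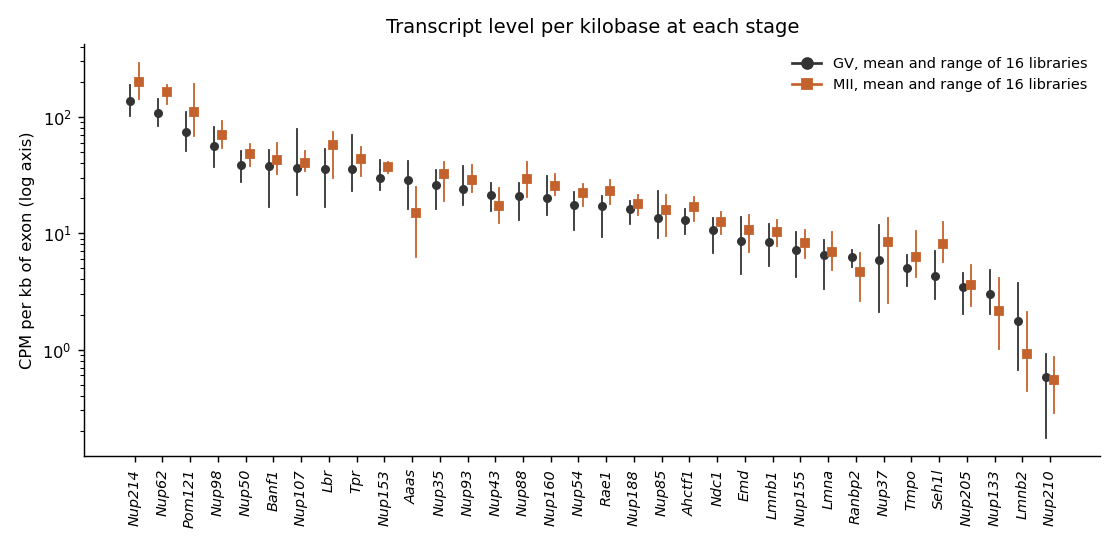
Level of each of the 34 genes in CPM per kilobase of exon on a log axis, with the mean (marker) and the range (line) of the 16 GV and the 16 MII libraries, ordered by the GV mean. Nup214, Nup62, Pom121 and Nup98 lead at both stages and Lmnb2 and Nup210 are lowest.

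The 3′ ends of the transcripts were read for the cytoplasmic polyadenylation element, a U-rich motif through which oocytes of the frog and the mouse are known to lengthen the poly(A) tails of stored mRNAs. The last 100 bases of 1 transcript per gene were searched on the transcript strand for TTTTAT or TTTTAAT, written as DNA, and for the polyadenylation hexamer AATAAA. A window could be read for 31 of the 34 genes, since Nup43, Aaas and Tpr had a 3′ untranslated region shorter than the window in the annotation. The element was present in 8 of the 31, or 25.8%, beside 17.9% of 19328 protein-coding genes read the same way. AATAAA was present in 23 of the 31, or 74.2%, beside 64.7%. The 8 genes held 9 elements, 2 of them in Nup54. For each gene 30 bases around the element nearest the 3′ end are shown. All 8 are members called between the stages, as given further on. So were most genes with a window, of which 22 rose, 3 fell and 6 did not pass. Each is from GENCODE transcripts on GRCm38, 5′ to 3′ on the transcript strand, with the element, AATAAA and, where it overlaps an element, its variant ATTAAA in capitals.

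Nup37, chr10:88178300-88178329, plus strand: aaaaatccttatTTTTATatcaaacatact
Nup35, chr2:80658873-80658902, plus strand: tccaAATAAActttgtcaatTTTTATgtgc
Nup62, chr7:44830710-44830739, plus strand: cagtcatgtctaTTTTATttctctgcactc
Nup54, chr5:92415542-92415571, minus strand: aaAATAAAttgttaatttgtaaTTTTATgt
Nup98, chr7:102119477-102119506, minus strand: atgtaaaggtTTTTATTAAAaaatatatat
Ranbp2, chr10:58494283-58494312, plus strand: tatgcaacttaTTTTAATtcctgttaagat
Rae1, chr2:173015646-173015675, plus strand: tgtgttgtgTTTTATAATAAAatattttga
Lbr, chr1:181815382-181815411, minus strand: gtgcaagttgtTTTTAATttgatgtttggc

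In Nup98 the element overlapped ATTAAA, and in Rae1 it was joined directly to AATAAA. In Nup35 and Nup54 AATAAA lay upstream of the element within the printed bases. A match of letters is a description of the annotated transcript end, and which ends oocytes use was not measured.

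Most of the set was higher in MII than in GV oocytes. As a mean over the 3 kinds of female, 23 of the 34 genes rose, 5 fell and 6 did not pass the test. The genes that rose made up 67.6% of the set, while 22.9% of the 19003 genes tested were called higher, and the genes that fell made up 14.7%, while 29.0% of all genes were called lower. The median log2 change was 0.30 over the set and -0.06 over all genes tested. No change in the set reached 2-fold, and for no member were all 16 MII libraries beyond all 16 GV libraries. How many of all genes tested reached either mark was not counted. CPM is a share of a library, and the RNA content of an oocyte was not measured, so a higher share does not give more molecules per oocyte. Tests were two-sided with edgeR's quasi-likelihood method and Benjamini-Hochberg adjustment over all 19003 genes, with a threshold of 0.05, and values after ± in log2 changes are SEs.

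**Figure D2:**
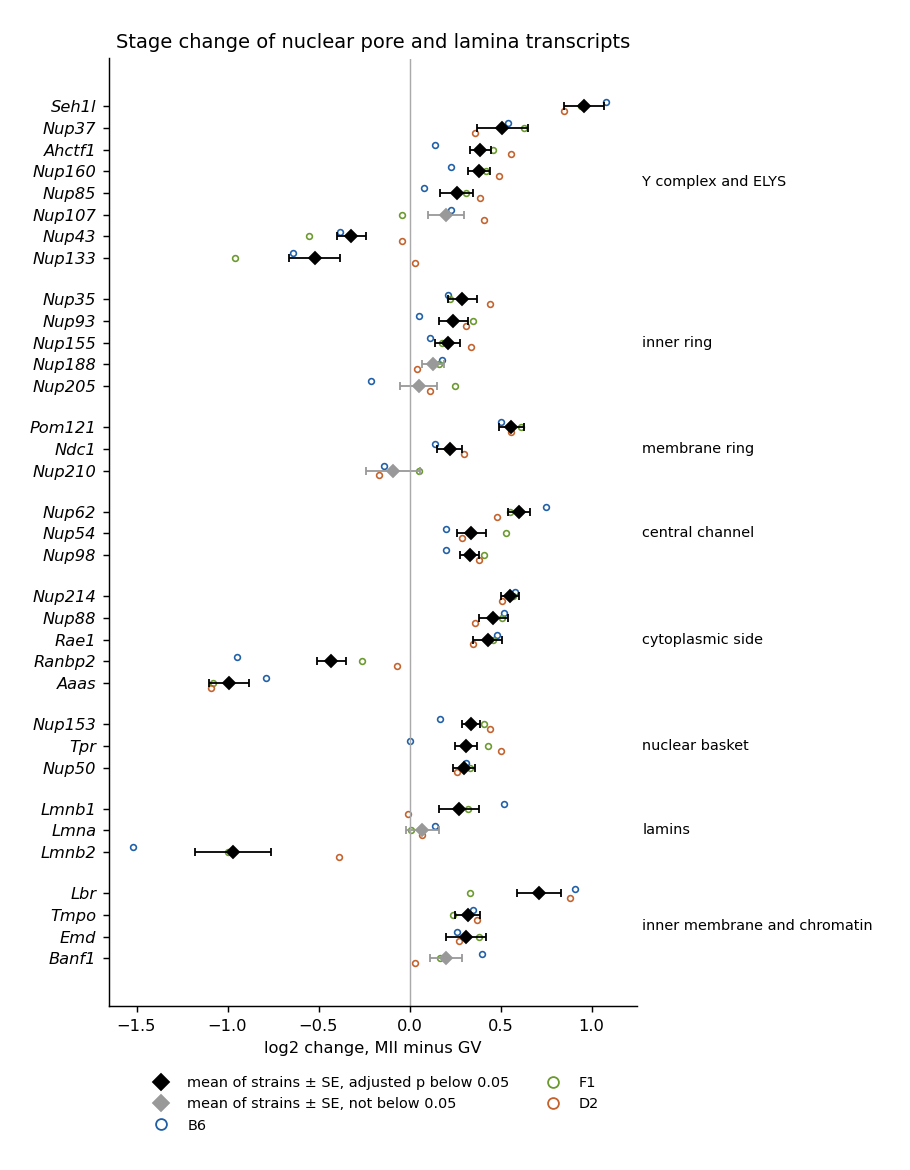
Log2 change from GV to MII for each gene, grouped by its place in the envelope. Diamonds and lines give the mean of the 3 kinds of female ± SE, black where the adjusted p was below 0.05 and grey where it was not, and open circles give B6, F1 and D2 alone. Most diamonds lie right of 0, and Aaas, Lmnb2, Nup133, Ranbp2 and Nup43 are the black ones to the left.

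RNA of follicle cells moved with the stage. The summed level of 18 granulosa and cumulus markers ran from 165 to 3889 CPM in GV and from 108 to 212 CPM in MII libraries, with 12 of 17 tested markers lower and 2 higher in MII and Foxl2 at 0 in all MII libraries. Summed stroma and blood markers ran from 19.1 to 411 CPM in GV and from 33.7 to 78.3 CPM in MII libraries, with 1 of 10 called higher and 8 lower in MII and Hbb-bs and Hba-a1 at 0 in MII. In bulk samples fewer follicle cells and less RNA in each of them cannot be told apart. The 10 oocyte markers summed to between 8247 and 12479.7 CPM in GV and 6717 and 10629 CPM in MII libraries and were present in every library, with 3 of them called higher and 4 lower in MII. With the granulosa level as a covariate, 9 members stayed higher and 2, Aaas and Nup43, stayed lower, while 6.35% and 8.96% of all genes were called higher and lower. In that fit Seh1l (log2 1.24, adjusted p = 2.18e-05) and Nup62 (log2 0.46, adjusted p = 0.00184) passed and Lmnb2 did not (log2 -0.49, adjusted p = 0.408). Because the covariate moves with the stage, a call lost in that fit is not by itself a smaller change. Nup133 went from a log2 change of -0.52 (SE 0.14) to -0.57 (SE 0.25), while Nup35 went from 0.29 (SE 0.08) to -0.02 (SE 0.12). Batch 2 alone gave 7 higher and 5 lower members, beside 9.53% and 14.1% of all genes, and batch 1 alone gave 19 and 4, beside 18.4% and 28.5%. With no batch term Nup37, Nup85, Nup155 and Tpr were not called.

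The Y complex, which forms the outer scaffold rings, together with Ahctf1, whose product ELYS seeds pore assembly on chromatin, had 5 of 8 genes higher and 2 lower in MII, with a median log2 change of 0.32. Seh1l showed the largest rise of the whole set, and its product is shared by the Y complex and the GATOR complex of nutrient sensing. Seh1l ran from 11.1 to 28.8 CPM with a median of 17.3 in the 16 GV libraries, and from 23.4 to 51.4 CPM with a median of 33.5 in the 16 MII libraries. By group (SD, with the n of each group given above) it averaged 15.4 ± 3.53, 18.3 ± 4.38 and 18.8 ± 6.08 CPM in B6, F1 and D2 GV oocytes, against 31.9 ± 10.1, 35.3 ± 1.12 and 33.4 ± 4.50 CPM in MII oocytes. It rose 1.94-fold (log2 0.96 ± 0.11, adjusted p = 9.5e-09), and 13 of 16 MII libraries lay above every GV library. The other members that rose moved less: Nup37 by 0.51, Ahctf1 by 0.39, Nup160 by 0.38 and Nup85 by 0.26 on the log2 scale. In batch 2 alone Nup37 (0.54, adjusted p = 0.142), Ahctf1 (0.23, adjusted p = 0.0841), Nup160 (0.16, adjusted p = 0.236) and Nup85 (0.19, adjusted p = 0.332) did not pass. With the granulosa covariate Ahctf1 (0.23, adjusted p = 0.132), Nup160 (0.20, adjusted p = 0.255) and Nup85 (0.18, adjusted p = 0.517) did not, and Nup85 also missed in batch 1 alone (0.27, adjusted p = 0.0528). Nup107 did not pass (log2 0.20 ± 0.10, adjusted p = 0.0996).

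Within the same complex Nup133 and Nup43 went the other way. Nup133 ran from 14.3 to 33.9 CPM with a median of 21.0 in the 16 GV libraries, and from 7.20 to 29.0 CPM with a median of 13.9 in the 16 MII libraries. Its group means were 23.6 ± 7.31, 21.8 ± 3.35 and 18.4 ± 2.87 CPM in B6, F1 and D2 GV oocytes, against 15.2 ± 7.02, 11.2 ± 2.75 and 18.7 ± 3.71 CPM in MII oocytes. It fell 1.44-fold (log2 -0.52 ± 0.14, adjusted p = 0.00153), with the D2 groups at nearly the same mean at both stages and 1 B6 MII library, at 29.0 CPM, well above the others of its group. Nup43, a small beta-propeller subunit, ran from 39.4 to 69.1 CPM with a median of 51.0 in the 16 GV libraries, and from 31.3 to 62.9 CPM with a median of 41.8 in the 16 MII libraries. For Nup43 the groups averaged 54.9 ± 8.35, 52.7 ± 11.3 and 54.3 ± 9.44 CPM in B6, F1 and D2 GV oocytes, against 42.7 ± 7.59, 35.3 ± 4.57 and 52.5 ± 6.47 CPM in MII oocytes. It fell 1.25-fold (log2 -0.32 ± 0.08, adjusted p = 0.00123), and 7 of 16 MII libraries were below every GV library. The Nup133 call was lost with the granulosa covariate (-0.57, adjusted p = 0.126) and that of Nup43 in batch 1 alone (-0.21, adjusted p = 0.112).

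The inner ring, which ties the scaffold to the membrane and the central channel, had 3 of 5 genes higher and none lower. Nup35 rose by 0.29, Nup93 by 0.24 and Nup155 by 0.21 on the log2 scale, while Nup188 (log2 0.13 ± 0.06, adjusted p = 0.0554) and Nup205 (log2 0.05 ± 0.10, adjusted p = 0.712) did not pass. None of the 3 calls held in batch 2 alone, where Nup35 was at 0.15, adjusted p = 0.419, Nup93 at 0.23, adjusted p = 0.111 and Nup155 at 0.07, adjusted p = 0.574. Nor did any hold with the granulosa covariate, where they were at -0.02, adjusted p = 0.951, at 0.18, adjusted p = 0.47 and at 0.19, adjusted p = 0.365 in that order. With the filter of 1 CPM in 16 libraries Nup93 (0.17, adjusted p = 0.054) and Nup155 (0.15, adjusted p = 0.0643) also missed, and Nup93 did so in batch 1 alone (0.18, adjusted p = 0.205). Of the 3 transmembrane nucleoporins, Pom121 and Ndc1 rose and Nup210 did not pass (log2 -0.09 ± 0.15, adjusted p = 0.658). Pom121 ran from 286 to 612 CPM with a median of 411 in the 16 GV libraries, and from 384 to 1073 CPM with a median of 531 in the 16 MII libraries. Its group means were 407 ± 128, 398 ± 89.6 and 438 ± 116 CPM in B6, F1 and D2 GV oocytes, against 601 ± 169, 588 ± 175 and 660.4 ± 249 CPM in MII oocytes. The libraries split by batch as well as by stage, with batch 2 higher at each stage, and 8 of 9 MII libraries of batch 1 and 7 of 7 of batch 2 were above every GV library of their own batch. Pom121 rose 1.47-fold (log2 0.56 ± 0.07, adjusted p = 1.01e-08). Ndc1, which recruits aladin to the pore, rose by 0.22, a call lost in batch 1 alone (0.16, adjusted p = 0.169), in batch 2 alone (0.20, adjusted p = 0.214) and with the granulosa covariate (0.10, adjusted p = 0.692).

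All 3 genes of the central channel rose. Nup62, a core protein of the permeability barrier, ran from 240.0 to 408 CPM with a median of 313 in the 16 GV libraries, and from 369 to 536 CPM with a median of 468 in the 16 MII libraries. By group it averaged 266 ± 33.1, 309 ± 31.7 and 349.6 ± 41.4 CPM in B6, F1 and D2 GV oocytes, against 449 ± 63.8, 453 ± 25.4 and 488 ± 33.6 CPM in MII oocytes. It rose 1.51-fold (log2 0.60 ± 0.06, adjusted p = 2.66e-10), and 14 of the 16 MII libraries were above every GV library, the most of any of the 34 genes. Nup54, its partner in the channel, rose by 0.34 and Nup98, which also binds mRNA export factors, by 0.33 on the log2 scale. Of the 3, only Nup62 passed in batch 2 alone and with the granulosa covariate. Nup54 was at 0.14, adjusted p = 0.407 and Nup98 at 0.19, adjusted p = 0.0895 in batch 2 alone, and at 0.19, adjusted p = 0.426 and 0.20, adjusted p = 0.104 with the covariate. The 3′ ends printed above hold a polyadenylation element for all 3. Across the set, among genes with a window to read, the element was present in 7 of 22 that rose and in 1 of 3 that fell, which was Ranbp2. It was present in 0 of 6 that did not pass. These are small counts, beside 17.9% of all protein-coding genes read the same way, and a link of the element with the stage change was not tested.

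The cytoplasmic side of the pore moved in both directions, with 3 of 5 genes higher and 2 lower and a median log2 change of 0.43. Nup214, a docking site of the mRNA remodelling helicase, ran from 975 to 1832 CPM with a median of 1180.1 in the 16 GV libraries, and from 1375 to 2816 CPM with a median of 1788 in the 16 MII libraries. Its group means were 1347 ± 372, 1332 ± 273 and 1249 ± 289 CPM in B6, F1 and D2 GV oocytes, against 2072 ± 491, 1895 ± 392 and 1806 ± 549 CPM in MII oocytes. Within each batch the stages did not overlap, since 9 of 9 MII libraries of batch 1 and 7 of 7 of batch 2 were above every GV library of their batch. Nup214 rose 1.47-fold (log2 0.55 ± 0.05, adjusted p = 2.81e-10). Its binding partner Nup88 rose by 0.46 and the mRNA export factor Rae1 by 0.43 on the log2 scale.

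Aaas, the gene mutated in the human triple A syndrome, had the largest fall of the set. It ran from 45.4 to 117 CPM with a median of 81.5 in the 16 GV libraries, and from 17.4 to 70.5 CPM with a median of 40.5 in the 16 MII libraries. The groups averaged 80.7 ± 18.1, 77.3 ± 11.1 and 83.2 ± 26.1 CPM in B6, F1 and D2 GV oocytes, against 47.3 ± 12.1, 35.8 ± 12.0 and 39.5 ± 8.47 CPM in MII oocytes. Aaas fell 1.98-fold (log2 -0.99 ± 0.11, adjusted p = 6.03e-09), and 11 of 16 MII libraries were below every GV library. Ranbp2, which forms the cytoplasmic filaments and acts as a SUMO ligase, ran from 60.1 to 83.6 CPM with a median of 74.0 in the 16 GV libraries, and from 30.8 to 79.2 CPM with a median of 57.0 in the 16 MII libraries. For Ranbp2 the group means were 77.9 ± 5.24, 69.6 ± 5.74 and 72.0 ± 6.88 CPM in B6, F1 and D2 GV oocytes, against 40.3 ± 9.92, 58.3 ± 10.8 and 68.6 ± 9.71 CPM in MII oocytes. It fell 1.34-fold (log2 -0.43 ± 0.08, adjusted p = 3.24e-05), and the lowest MII values were those of B6. With the granulosa covariate Ranbp2 was not called (-0.39, adjusted p = 0.0564). The nuclear basket, which faces the chromatin, had all 3 genes higher: Nup153 by 0.34, Tpr by 0.31 and Nup50 by 0.30 on the log2 scale. None of the 3 was called in batch 2 alone, with Nup153 at 0.14, adjusted p = 0.219, Tpr at 0.11, adjusted p = 0.416 and Nup50 at 0.07, adjusted p = 0.575. With the granulosa covariate none was called either, at 0.15, adjusted p = 0.259 for Nup153, 0.08, adjusted p = 0.675 for Tpr and 0.11, adjusted p = 0.539 for Nup50.

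**Figure D3:**
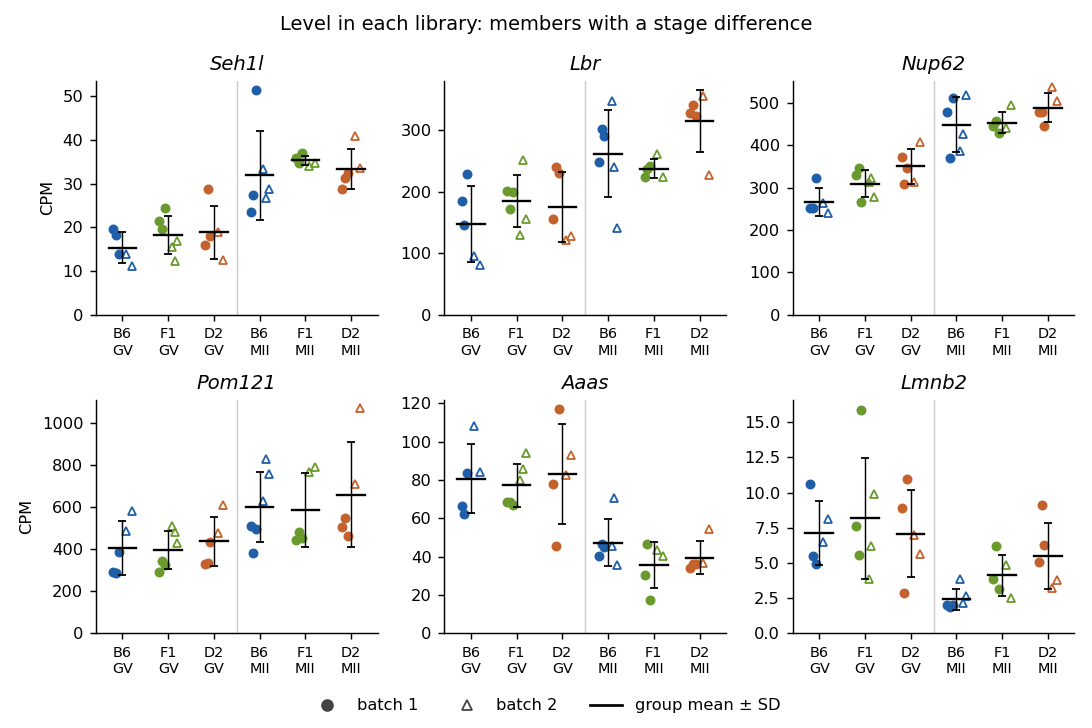
CPM in every library for the 4 genes with the largest rises and the 2 with the largest falls, by strain and stage, with batch 1 as filled circles, batch 2 as open triangles, and the group mean ± SD. Seh1l, Lbr, Nup62 and Pom121 sit higher in MII and Aaas and Lmnb2 sit lower, with some libraries of the stages overlapping in each panel.

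The 3 lamins did not move together. Lmnb2 ran from 2.87 to 15.9 CPM with a median of 6.75 in the 16 GV libraries, and from 1.89 to 9.09 CPM with a median of 3.49 in the 16 MII libraries. Its group means were 7.15 ± 2.31, 8.17 ± 4.28 and 7.08 ± 3.10 CPM in B6, F1 and D2 GV oocytes, against 2.42 ± 0.747, 4.11 ± 1.46 and 5.49 ± 2.34 CPM in MII oocytes. Lmnb2 fell 1.96-fold (log2 -0.97 ± 0.21, adjusted p = 0.000154), with the lowest MII values in B6 and 6 of 16 MII libraries below every GV library. The other B-type lamin, Lmnb1, ran from 15.6 to 35.7 CPM with a median of 23.4 in the 16 GV libraries, and from 22.8 to 38.9 CPM with a median of 29.2 in the 16 MII libraries. By group Lmnb1 averaged 23.1 ± 7.55, 24.4 ± 4.53 and 27.3 ± 5.66 CPM in B6, F1 and D2 GV oocytes, against 33.1 ± 5.77, 30.4 ± 3.79 and 27.1 ± 4.78 CPM in MII oocytes. It rose 1.21-fold (log2 0.27 ± 0.11, adjusted p = 0.029), and 3 of 16 MII libraries lay above every GV library. The Lmnb1 call was lost, with adjusted p between 0.0505 and 0.0638, when any of 6 libraries was left out: replicate 2 of batch 1 or replicate 1 or 2 of batch 2 in B6 GV, replicate 2 of batch 1 in F1 GV, replicate 2 of batch 2 in F1 MII, or replicate 4 of batch 1 in D2 MII. It was also lost in 7 of 13 other settings: median-of-ratios scaling (0.23, adjusted p = 0.0618), the 1 CPM filter (0.21, adjusted p = 0.0835), DESeq2 (0.23, adjusted p = 0.0518), batch 1 alone (0.22, adjusted p = 0.228), batch 2 alone (0.30, adjusted p = 0.152), the granulosa covariate (0.39, adjusted p = 0.208) and without the 3 GV libraries lowest in granulosa markers (0.22, adjusted p = 0.0885). Lmna, which encodes the A-type lamins, ran from 19.5 to 51.0 CPM with a median of 40.3 in the 16 GV libraries, and from 28.3 to 59.5 CPM with a median of 40.2 in the 16 MII libraries. The Lmna groups averaged 36.8 ± 11.1, 40.4 ± 8.93 and 37.1 ± 8.57 CPM in B6, F1 and D2 GV oocytes, against 39.2 ± 9.25, 41.1 ± 6.19 and 39.8 ± 12.0 CPM in MII oocytes, and it did not pass the test with the stages overlapping (log2 0.07 ± 0.09, adjusted p = 0.537).

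Of the genes whose products join the membrane and chromatin to the lamina, Lbr, Emd and Tmpo rose and Banf1 did not pass. Lbr, the lamin B receptor, which is also a sterol reductase, ran from 80.3 to 252 CPM with a median of 165 in the 16 GV libraries, and from 142 to 356 CPM with a median of 255 in the 16 MII libraries. Its group means were 148 ± 61.9, 185 ± 42.4 and 175 ± 56.6 CPM in B6, F1 and D2 GV oocytes, against 262 ± 70.7, 238 ± 15.3 and 316 ± 50.7 CPM in MII oocytes. It rose 1.63-fold (log2 0.71 ± 0.12, adjusted p = 6.6e-06), and 7 of 9 MII libraries of batch 1 and 3 of 7 of batch 2 were above every GV library of their batch. Tmpo, which encodes the LAP2 proteins of the LEM domain family, ran from 38.6 to 70.9 CPM with a median of 55.4 in the 16 GV libraries, and from 46.3 to 114 CPM with a median of 65.7 in the 16 MII libraries. By group it averaged 46.1 ± 7.93, 55.2 ± 5.68 and 65.2 ± 4.96 CPM in B6, F1 and D2 GV oocytes, against 57.8 ± 8.62, 66.7 ± 7.27 and 85.0 ± 18.0 CPM in MII oocytes. Tmpo rose 1.25-fold (log2 0.32 ± 0.07, adjusted p = 0.000107), and 6 of 16 MII libraries lay above every GV library. The Tmpo call was lost in batch 2 alone (0.20, adjusted p = 0.192) and with the granulosa covariate (0.30, adjusted p = 0.0983). Emd encodes emerin, another LEM domain protein. It ran from 11.1 to 34.9 CPM with a median of 21.3 in the 16 GV libraries, and from 17.4 to 35.8 CPM with a median of 26.4 in the 16 MII libraries. The Emd groups averaged 26.0 ± 6.14, 21.7 ± 3.55 and 17.3 ± 6.74 CPM in B6, F1 and D2 GV oocytes, against 30.8 ± 3.95, 28.5 ± 6.14 and 21.0 ± 3.56 CPM in MII oocytes. It rose 1.24-fold (log2 0.31 ± 0.11, adjusted p = 0.0243) with the stages largely overlapping, and the call was lost without replicate 1 of batch 2 in D2 MII (adjusted p = 0.0559). It was also lost with median-of-ratios scaling (0.26, adjusted p = 0.0581), with the 1 CPM filter (0.24, adjusted p = 0.0804), in batch 1 alone (0.24, adjusted p = 0.169), in batch 2 alone (0.28, adjusted p = 0.311) and without the 3 GV libraries lowest in granulosa markers (0.22, adjusted p = 0.111), while with the granulosa covariate the Emd change was larger (log2 0.70, adjusted p = 0.0162). Banf1 encodes the DNA binding protein that LEM domain proteins hold. It ran from 25.2 to 77.9 CPM with a median of 59.1 in the 16 GV libraries, and from 48.0 to 89.7 CPM with a median of 63.1 in the 16 MII libraries. For Banf1 the groups averaged 50.7 ± 18.8, 57.0 ± 12.6 and 62.8 ± 13.0 CPM in B6, F1 and D2 GV oocytes, against 63.3 ± 14.3, 66.1 ± 12.8 and 63.9 ± 9.78 CPM in MII oocytes, and the difference did not pass with the stages overlapping (log2 0.20 ± 0.09, adjusted p = 0.0667). Leaving out any of 7 libraries took Banf1 just past the threshold, with adjusted p between 0.0336 and 0.0497: replicate 2 of batch 1 in B6 GV or in B6 MII, replicate 3 of batch 1 or replicate 2 of batch 2 in D2 GV, replicate 4 of batch 1 in D2 MII, replicate 1 of batch 2 in F1 GV, or replicate 5 of batch 1 in F1 MII. Exons of Banf1, Emd, Pom121 and Lbr share 28.6%, 13.6%, 11.9% and 9.2% of their bases with Eif1ad, the pseudogene Gm14686, Nsun5 and Dnah14. Gm14686 lies on the strand of Emd, while Eif1ad, Nsun5 and Dnah14 lie opposite their partners. The labels name no strand setting for the counting, so reads of such pairs cannot be fully told apart. Smaller overlaps of other members, such as 7.9% of Nup188 with Gm14471, are not listed.

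The direction of the stage change was much the same in each kind of female, with fewer calls. In B6, 10 members rose and 5 fell, beside 10.3% and 16.4% of all genes. In F1, 15 rose and 4 fell, beside 14.9% and 18.0%. In D2, 14 rose and 1 fell, beside 13.1% and 15.6%. Seh1l, Pom121, Nup62, Nup88 and Nup214 passed as higher in all 3, and Aaas as lower in all 3. The log2 change was above 0 in all 3 for 24 members, below 0 in all 3 for 4, and of mixed sign for 6, namely Nup107, Nup133, Nup205, Nup210, Tpr and Lmnb1.

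Several members had unlike values in the strains, but no difference in stage change between strains passed the test. The log2 change of Ranbp2 was -0.95 in B6, -0.26 in F1 and -0.07 in D2. That of Lmnb2 was -1.52 in B6, -1.0 in F1 and -0.39 in D2. For Nup133 it was -0.64 in B6, -0.96 in F1 and 0.03 in D2. These genes had their smallest change in D2. Tpr, the scaffold of the nuclear basket, had changes of -0.00 in B6, 0.43 in F1 and 0.50 in D2, and Lmnb1 had changes of 0.52 in B6, 0.32 in F1 and -0.01 in D2. Of the 34 members, 0 were called for D2 against B6, 0 for F1 against B6 and 0 for F1 against D2, beside 0.105%, 0.0105% and 0.0316% of all genes, and 5, 4 and 2 had an unadjusted p below 0.05. The lowest adjusted p was that of Ranbp2 for D2 against B6, a difference of 0.88 ± 0.20 with an adjusted p of 0.063 by edgeR, and 0.0178 by DESeq2, which called no other member in the 3 comparisons. With limma-voom 0 members were called in each of the 3.

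Between the parental strains, D2 GV oocytes had lower levels than B6 GV oocytes of 9 members and higher levels of 2. These were 26.5% and 5.88% of the set, while 11.3% and 9.16% of all genes were called lower and higher. Tmpo and Nup62 were the 2 that were higher. Tmpo had 38.6, 41.1, 41.5, 54.4 and 55.1 CPM in the 5 B6 GV libraries. It had 57.8, 63.3, 66.1, 67.8 and 70.9 CPM in the 5 D2 GV libraries. No D2 value lay within the B6 range, and Tmpo was 1.42-fold higher in D2 (log2 0.50 ± 0.12, adjusted p = 0.00162). Nup62 had 240.0, 251, 253, 264 and 323 CPM in the 5 B6 GV libraries. The values were 308, 314, 347, 372 and 408 CPM in the 5 D2 GV libraries. The highest B6 library lay within the D2 range, and Nup62 was 1.31-fold higher in D2 (log2 0.39 ± 0.10, adjusted p = 0.00547).

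The 4 members with the lowest adjusted p among those lower in D2 GV oocytes came from the basket, the Y complex, the membrane ring and the cytoplasmic side. Tpr had 297, 331, 351, 494 and 739.7 CPM in the 5 B6 GV libraries. It had 239.9, 244, 290.0, 371 and 445 CPM in the 5 D2 GV libraries. The groups overlapped, and Tpr was 1.37-fold lower in D2 (log2 -0.45 ± 0.11, adjusted p = 0.00294). Nup85 had 33.7, 40.0, 62.1, 69.1 and 78.3 CPM in the 5 B6 GV libraries. Its values were 30.7, 31.5, 33.2, 38.1 and 47.0 CPM in the 5 D2 GV libraries. Here too the groups overlapped, and Nup85 was 1.53-fold lower (log2 -0.61 ± 0.16, adjusted p = 0.00354). Nup210 had 6.29, 6.57, 7.43, 8.27 and 9.52 CPM in the 5 B6 GV libraries. It had 1.83, 2.23, 4.50, 5.44 and 5.45 CPM in the 5 D2 GV libraries. All D2 values were below all B6 values, and Nup210 was 1.96-fold lower (log2 -0.97 ± 0.28, adjusted p = 0.0102). Nup88 had 158, 171, 204, 220.1 and 221 CPM in the 5 B6 GV libraries. It had 106, 134, 139, 141 and 199 CPM in the 5 D2 GV libraries. In 4 of 5 D2 libraries Nup88 was below every B6 library, and it was 1.36-fold lower (log2 -0.44 ± 0.13, adjusted p = 0.0156). The other 5 were Emd (-0.57), Nup93 (-0.42), Ndc1 (-0.37), Nup160 (-0.33) and Nup153 (-0.26 on the log2 scale). These 5 calls were the least stable, since of 13 alternatives those of Nup160 and Emd were lost in 8 each, that of Nup153 in 7, that of Nup93 in 6 and that of Ndc1 in 4.

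The count of GV calls moved with single libraries. Leaving out any of 12 libraries brought the 11 calls down by over 1.5 times. The F1 and MII libraries among them are not part of this comparison and bear on it only through the joint fit. Of the D2 GV libraries of batch 1, 6 calls were left without replicate 3, 5 without replicate 4 and 7 without replicate 5. There were 6 without replicate 4 of batch 1 or replicate 1 of batch 2 in B6 GV. There were 7 without any of replicates 2, 3 or 5 of batch 1 or replicate 3 of batch 2 in F1 GV, replicates 2 or 3 of batch 1 in B6 MII, or replicate 4 of batch 1 in F1 MII. Batch 1 alone gave 4 calls and batch 2 alone 6, without the shares of all genes called in these fits. Of the 6, Nup155 (0.55, adjusted p = 0.0296), Banf1 (0.82, adjusted p = 0.0436) and Rae1 (0.85, adjusted p = 0.0246) were not among the 11. The Nup210 difference was -1.34 with an adjusted p of 0.0294 in batch 1 alone and -0.35 with an adjusted p of 0.697 in batch 2 alone. That of Tpr was -0.28 with an adjusted p of 0.186 in batch 1 alone and -0.57 with an adjusted p of 0.0443 in batch 2 alone. In batch 1 alone Nup62 missed the threshold (0.37, adjusted p = 0.104), in batch 2 alone Nup85 did (-0.22, adjusted p = 0.663), and Nup88 did in both (-0.33, adjusted p = 0.323 and -0.48, adjusted p = 0.0937). Nup210 was not called with no filter on low counts (-0.91, adjusted p = 0.0862) and Tpr not with no batch term (-0.48, adjusted p = 0.175). Both calls were lost without replicate 3 or replicate 4 of batch 1 in D2 GV, with adjusted p of 0.073 and 0.0718 for Nup210 and 0.0505 and 0.0565 for Tpr. The Nup88 call was lost, with adjusted p between 0.0606 and 0.251, without any of 11 libraries: replicates 2 or 4 of batch 1 or replicate 1 of batch 2 in B6 GV, replicates 2 or 3 of batch 1 in B6 MII, replicates 4 or 5 of batch 1 or replicate 1 of batch 2 in D2 GV, replicate 3 of either batch in F1 GV, or replicate 4 of batch 1 in F1 MII. Summed granulosa and cumulus markers ran from 195 to 3889 CPM in B6 GV and from 191 to 3532 CPM in D2 GV libraries. With their level as a covariate 11 members were called, and without the 3 GV libraries lowest in them, replicate 1 of batch 2 in B6 and in F1 and replicate 2 of batch 2 in D2, 6 were called. Only Tmpo among the 6 genes described here passed in both batches, at 0.51 with an adjusted p of 0.0416 in batch 1 alone and 0.63 with an adjusted p of 0.0488 in batch 2 alone.

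In MII oocytes 4 members were higher in D2 than in B6 and 3 were lower, 11.8% and 8.82% of the set, while 13.4% and 13.0% of all genes were called higher and lower. The share of calls in the set was below that over all genes. Ranbp2 had 59.0, 62.6, 63.0, 78.9 and 79.2 CPM in the 5 D2 MII libraries. It ran from 30.8 to 56.1 CPM with a median of 36.4 in the 6 B6 MII libraries. No library of one strain lay within the range of the other, and Ranbp2 was 1.7-fold higher in D2 (log2 0.77 ± 0.14, adjusted p = 3.77e-05). Tmpo had 66.1, 77.1, 80.2, 87.7 and 114 CPM in the 5 D2 MII libraries. Its values ran from 46.3 to 70.0 CPM with a median of 56.4 in the 6 B6 MII libraries. All but 1 of the D2 libraries were above every B6 library. The Tmpo call was lost in batch 2 alone (0.42, adjusted p = 0.144), and over both batches Tmpo was 1.45-fold higher (log2 0.53 ± 0.11, adjusted p = 0.000394). Lmnb2 had 3.21, 3.76, 5.10, 6.29 and 9.09 CPM in the 5 D2 MII libraries. It ran from 1.89 to 3.86 CPM with a median of 2.07 in the 6 B6 MII libraries. The ranges overlapped at the top of B6, and Lmnb2 was 2.15-fold higher in D2 (log2 1.11 ± 0.36, adjusted p = 0.0185), a difference of 1.73 with an adjusted p of 0.0156 in batch 1 alone and 0.22 with an adjusted p of 0.841 in batch 2 alone. Without replicate 2 of batch 1 in B6 MII or replicate 3 of batch 1 in D2 MII the Lmnb2 call was lost (adjusted p = 0.0504 and 0.0683). Nup155 of the inner ring had 83.1, 103, 112, 121 and 128 CPM in the 5 D2 MII libraries. It ran from 72.6 to 105 CPM with a median of 88.3 in the 6 B6 MII libraries. Nup155 was 1.27-fold higher in D2 with overlapping ranges (log2 0.34 ± 0.12, adjusted p = 0.029), and this call was lost without replicate 3 of batch 1 or replicate 2 of batch 2 in B6 MII (adjusted p = 0.0509 and 0.0611) or replicate 4 of batch 1 in D2 MII (0.0958). It was also lost in batch 1 alone (0.30, adjusted p = 0.254), in batch 2 alone (0.27, adjusted p = 0.254), with no filter on low counts (0.36, adjusted p = 0.0591) and with no batch term (0.30, adjusted p = 0.255).

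Nup88, Nup210 and Emd were lower in D2 MII oocytes. Nup88 had 166, 169.7, 177, 193 and 213 CPM in the 5 D2 MII libraries. It ran from 222 to 334 CPM with a median of 279.8 in the 6 B6 MII libraries. The strains did not overlap, and Nup88 was 1.52-fold lower in D2 (log2 -0.60 ± 0.13, adjusted p = 0.000485). Nup210 had 3.01, 3.13, 3.47, 3.56 and 4.08 CPM in the 5 D2 MII libraries. Its values ran from 5.06 to 9.01 CPM with a median of 6.74 in the 6 B6 MII libraries. Again the strains did not overlap, and Nup210 was 2-fold lower in D2 (log2 -1.0 ± 0.27, adjusted p = 0.00483). In each batch alone Nup210 missed the threshold at a like size (-1.13, adjusted p = 0.0524 and -0.97, adjusted p = 0.139). Emd had 17.4, 18.8, 19.8, 22.5 and 26.4 CPM in the 5 D2 MII libraries. Emd ran from 25.2 to 35.8 CPM with a median of 30.8 in the 6 B6 MII libraries. Of 5 D2 libraries 4 were below every B6 library, and Emd was 1.47-fold lower (log2 -0.56 ± 0.20, adjusted p = 0.0328). This Emd call was lost, with adjusted p between 0.0558 and 0.101, without any of 7 libraries: replicates 1 or 3 of batch 1 or replicate 3 of batch 2 in B6 MII, or replicates 2, 3 or 4 of batch 1 or replicate 2 of batch 2 in D2 MII. It was also lost in batch 2 alone (-0.37, adjusted p = 0.525), with no filter on low counts (-0.54, adjusted p = 0.0549) and with no batch term (-0.55, adjusted p = 0.0605). Tmpo, Nup210, Nup88 and Emd were the members called in the same direction at both stages, and 14 members were called at either. The shares of all genes called at both stages or at either were not counted, so these counts are not set against them. Reads of all strains were aligned to 1 reference genome, and how well D2 reads aligned was not measured.

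**Figure D4:**
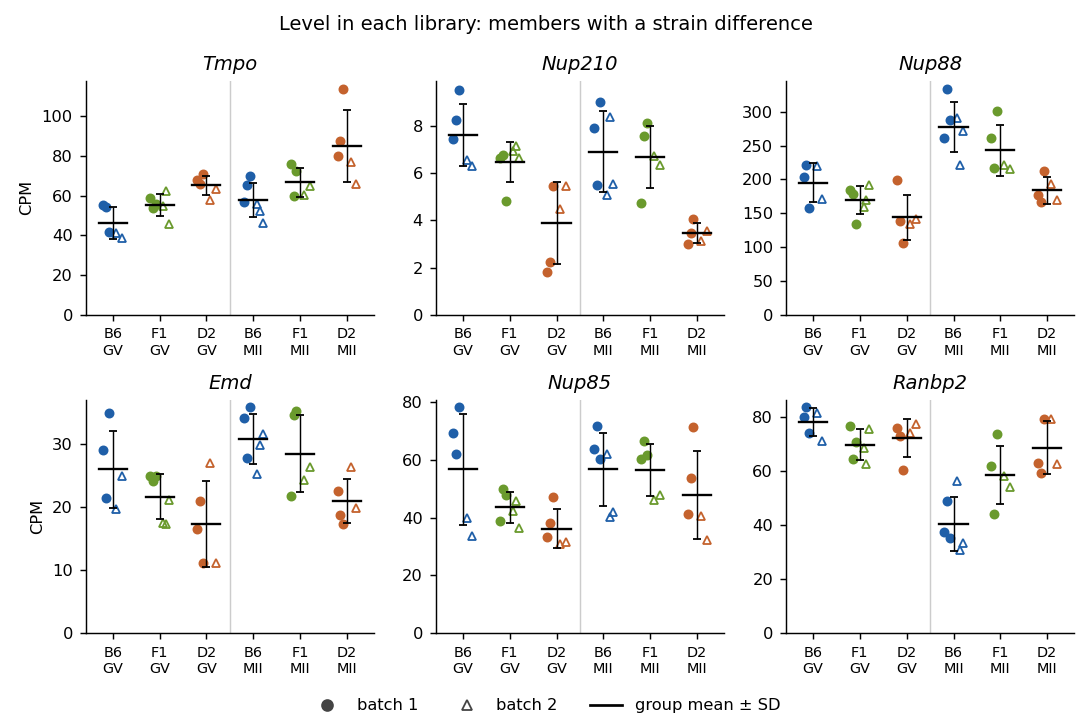
CPM in every library for the 4 genes that differed between D2 and B6 at both stages, and for Nup85 and Ranbp2, by strain and stage, with batch 1 as filled circles, batch 2 as open triangles, and the group mean ± SD. Nup210 is lowest in D2 at both stages, and Ranbp2 is lowest in B6 MII.

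**Figure D5:**
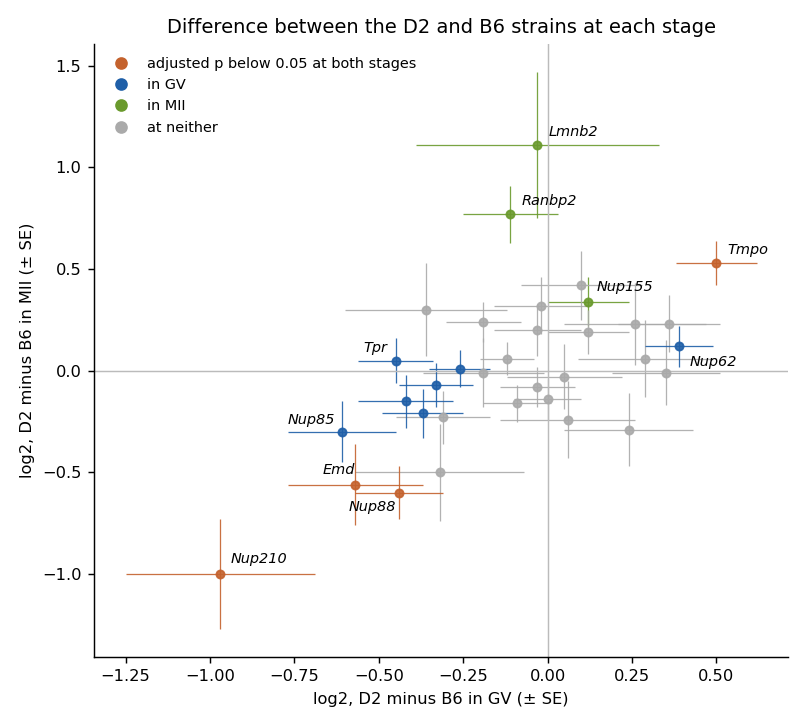
Log2 difference D2 minus B6 in GV oocytes on the horizontal axis and in MII oocytes on the vertical axis for each of the 34 genes, with lines of ± 1 SE and colours for the stages at which the adjusted p was below 0.05. Lmnb2 and Ranbp2 lie near 0 in GV and well above 0 in MII, and Nup210 is low at both stages.

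Calls of F1 oocytes against either parent were few in this set, as they were over all genes. In GV oocytes 0 members were called against B6 and 0 against D2, beside 5.50% and 6.05% of all genes, and 8 and 3 had an unadjusted p below 0.05. DESeq2 also called 0 and 0 there, and limma-voom 0 and 1. In MII oocytes 1 member was called against B6, beside 7.36% of all genes, and 2 against D2, beside 8.11%. Ranbp2 was higher in F1 than in B6 (log2 0.53 ± 0.14, adjusted p = 0.0113). Ranbp2 had 44.1, 54.1, 58.0, 61.7 and 73.5 CPM in the 5 F1 MII libraries, and overlapped with the B6 values given above. Nup43 was lower in F1 than in D2 (log2 -0.57 ± 0.15, adjusted p = 0.00875). Its values were 31.3, 32.5, 33.0, 37.2 and 42.4 CPM in the 5 F1 MII libraries and 45.1, 50.7, 51.1, 52.9 and 62.9 CPM in the 5 D2 MII libraries, with no overlap. Nup210 was higher in F1 than in D2 (log2 0.96 ± 0.28, adjusted p = 0.0252). It had 4.73, 6.33, 6.74, 7.56 and 8.14 CPM in the 5 F1 MII libraries, all above the D2 values. These 3 calls were absent in either batch alone, and that of Nup210 also with no filter on low counts (0.92, adjusted p = 0.146). Without replicate 5 of batch 1 in F1 MII the Ranbp2 call against B6 was lost (0.43, adjusted p = 0.0634), and without it, or without replicate 3 of batch 1 or replicate 1 of batch 2 in D2 MII, Nup43 was the 1 member called against D2. The Nup210 call was lost without any of these 3 or without replicate 4 of batch 1 in F1 MII or replicate 2 of batch 1 in D2 MII, with adjusted p between 0.0528 and 0.0734.

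Against the mean of the parents' log2 levels, 0 members were called in GV and 0 in MII oocytes, beside 0.879% and 1.16% of all genes, and 2 and 2 had an unadjusted p below 0.05. DESeq2 called 0 and 1, the latter being Nup43, and limma-voom 0 and 0. No member was called against both parents in the same direction. The F1 mean lay between the parents' means for 21 of 34 members in GV oocytes, above both for 5 and below both for 8. In MII oocytes it lay between them for 16, above both for 10 and below both for 8. These are plain group means on a log2 scale with no batch term, unlike the test above. The groups mix the batches unequally, with 3 libraries of batch 2 in F1 GV and 2 in each parent's GV group. In MII batch 2 gave 3 libraries of B6 and 2 each of F1 and D2. Positions can therefore partly reflect batch, and the same count over all genes was not made.

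Other genes of the envelope and of transport through it are given for comparison, as counts without a test of the lists, and over all genes 22.9% were called higher and 29.0% lower in MII. Only the fit of both batches without the granulosa covariate is given for them, and the part of follicle cell RNA in their changes was not tested. Of 12 further pore genes, 7 rose from GV to MII and 0 fell, with a median log2 change of 0.32. Gle1, which activates the mRNA export helicase, rose from 109.9 ± 21.3 to 263 ± 71.3 CPM (log2 1.24 ± 0.12, adjusted p = 3.42e-10), and all 16 MII libraries were above every GV library. Senp1, a SUMO protease, and Ddx19a, a helicase, rose as well (log2 0.52 ± 0.05, adjusted p = 5.66e-10 and log2 0.46 ± 0.06, adjusted p = 1.37e-07). Import receptors moved both ways, with 7 of 18 (38.9%) higher and 5 (27.8%) lower and a median log2 change of 0.12. Ipo8 rose from 307 ± 38.8 to 494 ± 55.5 CPM (log2 0.69 ± 0.06, adjusted p = 1.84e-11) and Kpna4, an importin alpha, fell from 7.71 ± 3.40 to 1.32 ± 1.16 CPM (log2 -2.69 ± 0.35, adjusted p = 1.02e-07). Of 10 export receptors 5 rose and 2 fell, with a median of 0.25, and Xpot, the tRNA exporter, fell from 3.73 ± 2.66 to 0.332 ± 0.253 CPM (adjusted p = 2.81e-07). Xpot ran from 0.0669 to 9.32 CPM in GV libraries, and 3 MII libraries were below every GV library. Its lowest MII library was at 0, so its fitted fold is not given.

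The Ran cycle, which gives transport its direction, had 1 of 7 genes higher and 3 lower, with a median of -0.09 where all genes had -0.06. Ran itself fell from 28.6 ± 10.7 to 13.8 ± 4.72 CPM (log2 -1.02 ± 0.11, adjusted p = 1.86e-09), and Rangap1, its GTPase activator, fell from 10.9 ± 4.02 to 4.19 ± 1.82 CPM (log2 -1.37 ± 0.19, adjusted p = 2.54e-07). Rangrf fell too (log2 -1.08 ± 0.22, adjusted p = 0.000106). Genes of the LINC complex and other inner membrane proteins had 4 of 18 (22.2%) higher and 5 (27.8%) lower, shares near those of all genes, and a median of -0.08. Tmem201 rose (log2 0.64 ± 0.07, adjusted p = 4.84e-10), as did the nesprin Syne2 (log2 0.50 ± 0.06, adjusted p = 6.45e-09). Lemd2 fell from a low level, 1.19 ± 1.13 to 0.0968 ± 0.116 CPM (adjusted p = 3.01e-06). Its lowest MII library was at 0, so its fitted fold is not given. Lamin maturation had 2 of 5 higher and 1 lower with a median of 0.10, and its protease gene Zmpste24 rose (log2 0.48 ± 0.07, adjusted p = 9.22e-07). Envelope breakdown and resealing had 4 of 19 higher and 8 lower, with a median of -0.10. The ESCRT-III gene Chmp2a fell from 29.2 ± 11.1 to 8.19 ± 4.12 CPM (log2 -1.86 ± 0.15, adjusted p = 2.88e-12), and the mitotic kinase gene Nek6 fell from 4.52 ± 2.84 to 0.982 ± 0.789 CPM (log2 -2.19 ± 0.37, adjusted p = 7.08e-06).

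Of the 89 genes of these lists that were tested, 8.99% were higher and 7.87% lower in D2 than in B6 GV oocytes, beside 9.16% and 11.3% of all genes, and 22.5% were higher and 10.1% lower in MII oocytes, beside 13.4% and 13.0%. Nemp1, an inner membrane protein gene, was higher in D2 than in B6 in GV (log2 1.37 ± 0.18, adjusted p = 2.81e-07) and MII oocytes (log2 1.63 ± 0.17, adjusted p = 1.88e-09). Senp1 was also higher in D2 at both stages (log2 0.72 ± 0.09, adjusted p = 2.66e-07 in GV and log2 0.89 ± 0.09, adjusted p = 7.94e-10 in MII). Spast, which encodes the microtubule severing enzyme spastin, was lower in D2 at both (log2 -0.90 ± 0.11, adjusted p = 8.97e-08 in GV and log2 -0.71 ± 0.11, adjusted p = 2.56e-06 in MII). Sun2, a LINC protein gene, had 14.9 ± 5.15 CPM in B6 and 0.238 ± 0.331 CPM in D2 MII oocytes (adjusted p = 4.83e-08), where the lowest D2 library was at 0, so its fitted fold is not given. Vrk2, a kinase of the Banf1 protein, was low in both strains, at 0.472 ± 0.295 CPM in B6 and 4.38 ± 1.79 CPM in D2 GV oocytes (adjusted p = 0.000174) and at 0.469 ± 0.456 and 3.28 ± 1.00 CPM in MII oocytes (adjusted p = 8.45e-05).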

How the data were processed

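RNA of oocyte pools was amplified by single primer isothermal amplification, made into libraries with 12 PCR cycles and read as single reads of 50 nt, per the labels' protocols. Reads were aligned to GRCm38.p4 with HISAT2, and the notes also name SAMtools, featureCounts in Subread 1.5.1 and DESeq2 1.16.1, per the submitters' processing notes. How strand and multi-mapped reads were treated is not given in the sources used. The deposited values are read counts per gene, not normalised by the authors, and 3 of 37444 entries that named no gene or had no counts, at most 0.019% of a library, were left out. Reads had no molecular identifiers.

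Genes were named through RefSeq identifiers (36371 of 37441 matched). The 32 libraries were fitted together with edgeR 4.0.16 (R 4.3.3), with terms for the 6 groups and batch, TMM scaling, the filterByExpr filter, which all 34 members passed, and robust quasi-likelihood tests. P-values were two-sided and adjusted by Benjamini-Hochberg over 19003 genes in each of the 15 contrasts, and an adjusted p below 0.05 counted as a call. The SE is the log2 change divided by the square root of F. CPM used TMM-scaled totals, and lengths are merged exons of GENCODE vM21. The fit was tested on simulated data. Precision is set by the spread between 5 or 6 libraries per group and by depth. Alternatives were other scalings and filters, DESeq2 1.42.0, limma-voom (limma 3.58.1), each batch alone, no batch term, a replicate block, the granulosa marker level as a covariate, 3 GV libraries left out, each library left out and, added after seeing the data, batch 2 split by title prefix.

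The members, the lists and the naming rule were chosen with earlier results of these data known. The rule takes the 5 largest called changes in each direction between the stages, up to 4 called members in each direction between D2 and B6 by adjusted p, called F1 and interaction members, all 7 lamina genes, and from other lists up to 3 called genes between stages and 2 between strains.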

Additional observations from a re-analysis of the deposited data

Results flagged for a closer look

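In 15 of 204 combinations of a member and a group, 7.35% where chance alone gives about 1 in 20 for groups of like libraries, while each group here mixes 2 batches, the highest or lowest library stood apart from the others of its group by more than Dixon's 95% limit. They fell on 12 members and 12 libraries, and 3 libraries had 2 each. Nup107 was at 93.4 CPM in B6 GV (replicate 2 of batch 2, others 138 to 146), at 299.9 in F1 GV (replicate 2 of batch 2, others 117 to 171) and at 196 in D2 MII (replicate 4 of batch 1, others 133 to 149.8). In B6 MII replicate 3 of batch 1 had Nup133 at 29.0 CPM (others 9.93 to 14.7) and Seh1l at 51.4 (others 23.4 to 33.4). In B6 GV replicate 5 of batch 1 had Nup93 at 160.2 CPM (others 107 to 121) and Nup62 at 323 (others 240.0 to 264). In D2 MII replicate 2 of batch 2 had Aaas at 54.5 CPM (others 34.0 to 36.6) and Lbr at 228 (others 323 to 356). Of the other B6 MII libraries of batch 2, replicate 2 had Aaas at 70.5 CPM (others 35.8 to 46.8), replicate 3 had Nup153 at 288 (others 249.6 to 263) and replicate 1 had Lmnb2 at 3.86 (others 1.89 to 2.62). In F1 GV of batch 1, replicate 5 had Nup210 at 4.81 CPM (others 6.64 to 7.15) and replicate 2 had Nup54 at 46.6 (others 54.8 to 59.4). Ranbp2 was at 60.1 CPM in D2 GV (replicate 5 of batch 1, others 72.9 to 77.4).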

How the results depend on the processing

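All 28 members called between the stages kept their direction in 44 of 45 settings, and with the granulosa covariate 27 did, Nup35 being at -0.02 with an adjusted p of 0.951. Of the settings 32 left out 1 library and most others refitted the same libraries, so a kept direction there says little. The 28 were also picked by the full fit, with which each batch alone shares its libraries. The count of 28 became 12 in batch 2 alone and 11 with the granulosa covariate, that of 23 higher members 7 and 9, and that of 5 lower members 2 with the covariate. Calls over all genes fell too, from 22.9% higher and 29.0% lower to 9.53% and 14.1% in batch 2 alone. With the covariate they were 6.35% and 8.96%. The counts within and between strains that follow have no such share beside them, so a loss there need not be particular to the set. In B6 the 15 calls became 9 in batch 1 alone, 6 in batch 2 alone, 9 with no batch term and 7 with the covariate. In F1 the 19 became 5 in batch 2 alone, 10 with no batch term and 9 with the covariate. In D2 the 15 became 7, 2, 7 and 6 in batch 1 alone, batch 2 alone, with no batch term and with the covariate. For D2 against B6 in GV the 11 became 5 with no filter on low counts, 4 and 6 in batch 1 and 2 alone, 5 with no batch term and 6 without the 3 GV libraries low in granulosa markers, and in MII the 7 became 3 in batch 2 alone. Such counts hold all members called in a setting. In batch 2 alone they include Nup155, Banf1 and Rae1 in GV, which were not among the 11. In MII they include Nup205 (0.74, adjusted p = 0.0318), which was not among the 7. F1 against B6 in GV went from 0 to 1 in batch 2 alone (Tpr), and against D2 in GV from 0 to 1 with limma-voom (Nup210) and with the replicate block (Nup107). In MII the 1 call against B6 became 0 in each batch alone, and the 2 against D2 became 4 with median-of-ratios scaling, the 1 CPM filter, DESeq2 or batch 2 split by title prefix and 0 in each batch alone. F1 against the mid-parent in MII went from 0 to 1 with DESeq2, and the D2 against B6 stage interaction from 0 to 1 with DESeq2 and with the covariate. The cause of these shifts was not tested. Each batch alone holds fewer libraries, and the granulosa level moves with the stage.

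Leaving out 1 library at a time gave 27 to 30 stage calls (22 to 25 higher and 5 to 5 lower), 12 to 17 in B6, 15 to 20 in F1, 11 to 16 in D2, 5 to 11 for D2 against B6 in GV and 5 to 9 in MII. For F1 it gave 0 to 1 against B6 and 0 to 1 against D2 in GV, 0 to 1 and 1 to 3 in MII, and 0 to 0 against the mid-parent at each stage. The stage interactions gave 0 to 1 for D2 against B6, the 1 without replicate 1 of batch 2 in B6 MII, replicate 2 of batch 2 in D2 GV or replicate 5 of batch 1 in F1 MII, and 0 to 0 for the others. In F1 against B6 in GV the 1 arose without replicate 5 of batch 1 in B6 GV, and against D2 without replicate 4 of batch 1 in D2 GV. With the replicate block the stage comparison had 29 calls, 24 higher and 5 lower. The labels do not say whether the numbers in the titles pair the libraries. The median correlation of 59 same-numbered pairs was -0.0344, beside -0.0447 for other pairs of the same batch. Of the same-numbered pairs 3 were above 0.1, the highest at 0.437. Correlations over all genes cannot settle whether pairs share a mother or a day, so the block says little. It left Emd (D2 against B6, both stages), Nup155 (the same, MII) and Nup210 (F1 against D2, MII) without a call. The split of batch 2 by title prefix was chosen after seeing the data, and with it 28 stage calls and 11 and 8 calls for D2 against B6 were made in GV and MII. The batch term itself was called for 20 of 34 members and for 42.4% of all genes. Genes of low level, such as Nup210 and Lmnb2, are the least precise.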
